A study of Mus musculus with 8 samples.

Results

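The genes described here are Crem and 8 other transcription regulators of male germ cells, Fhl5, Tbpl1, Rfx2, Sox30, Tcfl5, Mybl1, Spz1 and Taf7l, measured in mouse testis at postnatal day 23. They were taken by gene name, and every probe set that carried 1 of these names on the Affymetrix Mouse430_2 array was kept. This gave 16 probe sets for the 9 genes, out of 45101 probe sets on the array: 4 for Crem, 4 for Rfx2, 2 for Tbpl1 and 1 for each of the others. Of the 16 probe sets, 13 had a mean level above 6.43, the median over all probe sets. The 3 dim ones were the Mybl1 probe set, 1 of Crem and 1 of Rfx2.

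Each array held RNA from testis of 1 sample, and 5 arrays were labelled wildtype (replicates 1, 2, 4, 6 and 7) and 3 Ctcfl mutant (replicates 3, 5 and 8). According to the study's text the controls were heterozygous Ctcfl del/+ littermates of the homozygous del/del mutants, on a C57/Bl6 background, so that the controls also carry a deleted allele. The name in the labels is used below. The del allele was made by crossing a floxed allele to mice that express Cre, and it lacks the exons up to exon 8. Ctcfl itself, a testis paralog of the chromatin protein CTCF, was not analysed here, and so the level of the deleted gene could not be used to check the genotypes. The labels do not say that the samples came from separate animals, and p-values measure only the spread between these samples.

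Crem encodes the cAMP response element modulator. In round spermatids its activator forms switch on genes for chromatin packing and for the sperm tail, helped by the LIM domain coactivator ACT, the product of Fhl5. Earlier in the same lineage MYBL1 (A-MYB) drives genes of pachytene spermatocytes, with TCFL5 and RFX2 among the factors that work beside or after it, and the general machinery is joined by germ cell versions of its parts, TBPL1 for the TATA-binding protein and TAF7L for the TFIID subunit TAF7. SOX30 acts around the passage from spermatocyte to spermatid, and SPZ1 is a helix-loop-helix zipper protein of the testis.

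The upstream sequences of 4 members are shown because 2 of these genes, Fhl5 and Spz1, differed most between arrays, while the other 2, Rfx2 and Tcfl5, varied far less and carry most of the motif matches. Each is the 250 bases before the RefSeq transcript start in GRCm38.p6, on the strand of the gene. Capitals mark matches on either strand to the core of the cAMP response element (TGACG), an arm of the X-box bound by RFX proteins (GTTGCC) or the core of the MYB motif (AACGG). Fhl5 is shown at chr4:25242853-25243102, the window of the first of its 2 listed starts, Spz1 at chr13:92576233-92576482, Rfx2 at chr17:56831009-56831258 and Tcfl5 at chr2:180642692-180642941, all on the minus strand.
Fhl5: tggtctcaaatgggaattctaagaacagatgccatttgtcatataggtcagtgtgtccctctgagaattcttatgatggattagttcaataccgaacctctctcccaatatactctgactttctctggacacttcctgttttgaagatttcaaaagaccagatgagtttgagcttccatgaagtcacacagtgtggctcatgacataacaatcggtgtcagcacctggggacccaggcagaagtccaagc
Spz1: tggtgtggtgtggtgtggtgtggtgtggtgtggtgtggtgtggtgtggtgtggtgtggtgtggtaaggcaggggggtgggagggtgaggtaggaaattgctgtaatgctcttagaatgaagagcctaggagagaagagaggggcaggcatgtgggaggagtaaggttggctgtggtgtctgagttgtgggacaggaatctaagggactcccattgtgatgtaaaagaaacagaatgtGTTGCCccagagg
Rfx2: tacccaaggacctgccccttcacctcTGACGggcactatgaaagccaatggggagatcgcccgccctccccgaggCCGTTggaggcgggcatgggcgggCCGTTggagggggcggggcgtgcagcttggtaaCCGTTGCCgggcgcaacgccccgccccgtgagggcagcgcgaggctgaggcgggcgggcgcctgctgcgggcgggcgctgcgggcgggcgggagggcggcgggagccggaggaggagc
Tcfl5: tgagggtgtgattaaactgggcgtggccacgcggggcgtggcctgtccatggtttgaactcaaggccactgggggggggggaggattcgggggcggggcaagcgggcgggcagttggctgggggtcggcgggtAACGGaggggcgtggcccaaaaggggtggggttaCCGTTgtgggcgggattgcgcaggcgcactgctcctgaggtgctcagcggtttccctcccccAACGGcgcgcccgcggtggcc

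The table held windows for 7 of the 9 members, 8 windows in all, and Crem and Mybl1 are named only. The MYB core was found in 3 of the 8 windows, against 14.5% of the 32851 windows of the table. Rfx2 held it at 175, 151 and 118 bases before the start and Tcfl5 at 117, 83 and 21 bases before it, while Sox30 had 1 match. In Rfx2 the match at 118 bases overlapped an X-box arm at 116 bases, and Spz1 held the same arm at 13 bases. The X-box arm was present in 10.4% of all windows and the core of the cAMP response element in 17.8%, the latter in 1 member window, that of Rfx2. A match of letters is a description and not a measured binding site.

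Before the genotypes are compared, 2 arrays have to be set apart. Wildtype replicate 7 and mutant replicate 8 scored 40.2 and 38.2 on the first principal component of all probe sets, which held 44.9% of the variance, and the other 6 arrays lay between -24.8 and -3.10. The mean level of 6 late spermatid markers (Prm1, Prm2, Tnp1, Tnp2, Odf1 and Smcp) was 11.83 and 11.17 on these 2 arrays and 8.64 to 9.52 on the others. That of 5 round spermatid markers was 10.12 and 9.99 against 8.16 to 9.11, and that of 3 fat genes (Adipoq, Car3 and Cfd) 9.12 and 9.14 against 5.82 to 7.07. The 6 spermatocyte markers differed little, at 11.15 and 11.00 against 10.91 to 11.11. As a sign of RNA quality, the 3' probe set of the Gapdh control exceeded the 5' one by 0.31 and 0.33 there, and by 0.041 to 0.22 elsewhere. The part of any of these in the values below was not tested, and in whole testis fewer cells of a type and less RNA per cell cannot be told apart.

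Across the 8 arrays, Fhl5 and Spz1 were the members that varied most, and they were high on the same 2 arrays irrespective of genotype. Fhl5 (1449332_at) had log2 levels of 8.34, 8.57, 8.67, 8.66 and 10.14 on wildtype replicates 1, 2, 4, 6 and 7, and of 7.98, 8.25 and 9.93 on mutant replicates 3, 5 and 8. Wildtype replicate 7 thus lay 1.58 above the mean of the other 4 wildtype arrays on the log2 scale, and mutant replicate 8 lay 1.81 above the mean of the other 2 mutant arrays, or 2.99-fold and 3.51-fold. Only 0.381% of all probe sets had a wider range over the 8 arrays than the 2.16 of Fhl5.

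Spz1 (1450653_at) was highest on the same 2 arrays. Its levels were 9.43, 9.66, 9.73, 9.75 and 10.88 in wildtype and 8.93, 9.67 and 10.64 in mutant testis, in the same order of replicates. The 2 high arrays were 2.35-fold and 2.53-fold above the others of their genotype, and 0.585% of all probe sets had a wider range than its 1.95. Both genes were lowest on mutant replicate 3, the array at the lower end of the first principal component.

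**Figure D1:**
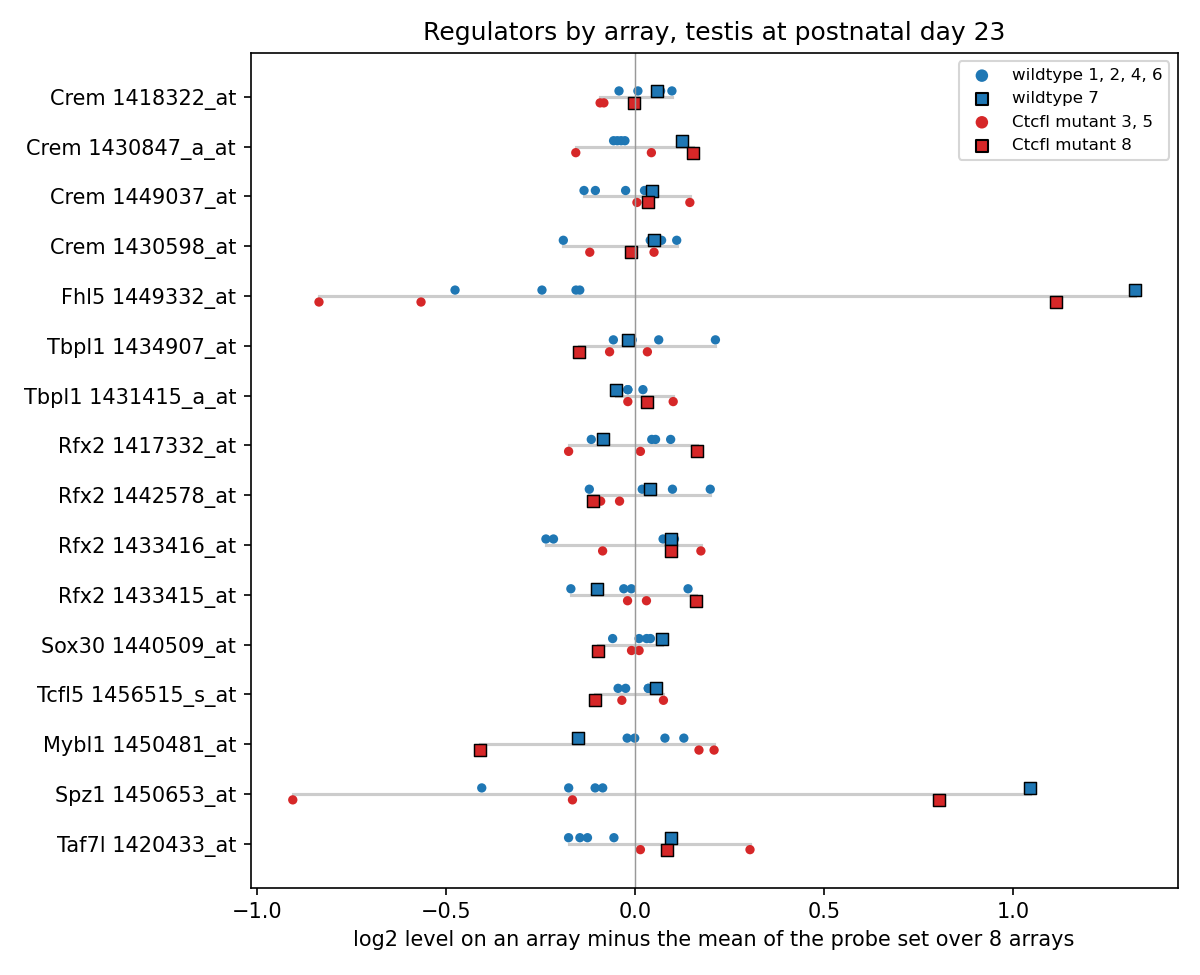
Log2 level of each of the 16 probe sets on each array minus its mean over the 8 arrays (x axis); blue points are wildtype, red points Ctcfl mutant, and squares mark wildtype replicate 7 and mutant replicate 8. Only for Fhl5 and Spz1 do both squares lie far to the right, with ranges of 2.16 and 1.95, and for Mybl1 they lie at the left.

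Crem itself stayed within a narrow band. The probe set with the main levels by rule (1418322_at) read 8.09, 8.06, 7.95, 8.0 and 8.05 in wildtype and 7.90, 7.91 and 7.99 in mutant testis. The brightest one (1430847_a_at), whose suffix marks several transcripts of the gene, read 10.65, 10.64, 10.63, 10.62 and 10.80 in wildtype and 10.52, 10.72 and 10.83 in mutant testis. On this probe set both replicate 7 and replicate 8 were the highest arrays, by 1.12-fold and 1.16-fold over the others of their genotype, far less than for Fhl5. The other Crem probe sets ranged from 6.75 to 7.03 (1449037_at) and from 3.94 to 4.24 (1430598_at). Between 67.0% and 92.4% of all probe sets had a wider range than each of the 4 Crem probe sets. The deposited table does not say which Crem isoform each probe set detects, so activator and repressor forms are not separated.

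Mybl1 moved the other way. Its single, dim probe set (1450481_at) read 5.71, 5.63, 5.61, 5.76 and 5.48 in wildtype and 5.80, 5.84 and 5.22 in mutant testis. Wildtype replicate 7 and mutant replicate 8 were thus the lowest arrays. The departures from the other arrays of the genotype were -0.20 and -0.60 on the log2 scale. At a level below the median of the array this is a weak signal, and 12.6% of all probe sets had a wider range.

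None of the remaining members came near the ranges of Fhl5 and Spz1. Taf7l, described with the genotypes below, had the widest, at 0.48 on the log2 scale, and 28.3% of all probe sets had a wider one. Tbpl1 ranged from 13.16 to 13.31 on its brighter probe set (1431415_a_at) and from 8.53 to 8.89 on the other (1434907_at), and Tcfl5 (1456515_s_at) from 12.99 to 13.17. Sox30 (1440509_at) lay between 8.69 and 8.86. The brightest Rfx2 probe set (1417332_at) lay between 10.84 and 11.18, and the others between 7.78 and 8.10 (1442578_at), 6.58 and 6.99 (1433416_at), and 4.69 and 5.02 (1433415_at). Of the Rfx2 probe sets, 1433416_at had the widest range, 0.40, just above the median range of 0.38 over all probe sets. The highest level of any probe set on any array was 14.9, and how far levels above 13 follow the amount of RNA was not tested.

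Over all members, 3 of 16 probe sets (Fhl5, Spz1 and Crem 1430847_a_at) were higher on both wildtype replicate 7 and mutant replicate 8 than on each of the other 6 arrays, and 1, that of Mybl1, was lower. Of all 45101 probe sets, 8.6% were higher and 10.3% lower on both arrays, so the counts for the members are a description of a shift that many transcripts shared. The pattern of Fhl5 and Spz1 was thus not shared by Tbpl1, Rfx2, Sox30, Tcfl5 or Taf7l.

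The question of the study was which testis transcripts depend on CTCFL at an age before degeneration sets in, and it was put to the 9 regulators. None of them differed between genotypes beyond the adjustment for all probe sets. With limma, 0 of the 16 member probe sets passed an adjusted p of 0.05, as did 0 of all 45101 probe sets (0%), and the adjusted p of every member was 1.0. At an unadjusted p under 0.05 there was 1 of 16, that of Taf7l, where 1564 of all probe sets (3.47%) met the same threshold and 1.76% did so with a higher level in mutant testis. The 3 mutant and 5 wildtype values overlapped for all 16 member probe sets, while they did not overlap for 2.70% of all probe sets. Of the 16 differences 7 were positive and 9 negative, with a median of -0.028 on the log2 scale, against 0.003 over all probe sets. With 1 main probe set for each gene, 7 of 9 were negative, with a median of -0.055. Of the main probe sets of all 20664 genes, 48.2% were negative. These counts were not tested.

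Taf7l, on the X chromosome, had the largest difference among the members. Its levels (1420433_at) were 9.24, 9.33, 9.21, 9.26 and 9.48 in wildtype and 9.40, 9.69 and 9.47 in mutant testis. Wildtype replicate 7 lay above 2 of the 3 mutant arrays, and the other 4 wildtype arrays lay below all 3. The means were 9.31 ± 0.11 (SD, n = 5) and 9.52 ± 0.15 (SD, n = 3), a difference of 0.21 (SE 0.090) with a limma adjusted p of 1.0. The exact two-sided permutation test of the 8 arrays gave p = 0.107, where 0.0357 is the smallest that 5 against 3 arrays allow. The unadjusted limma p was 0.0404. It came to between 0.0565 and 0.0805 without wildtype replicate 1, 2, 4 or 6. Without mutant replicate 5 it was 0.198, and with each array centred on its median 0.0516. It was 0.0137 without wildtype replicate 7 and 0.0247 without mutant replicate 3. Without both wildtype replicate 7 and mutant replicate 8 it was 0.0162, and with array weights 0.0131. The difference stayed positive under all 15 alternatives, from 0.13 to 0.28, and the lowest limma adjusted p among them was 0.751. Taf7 itself, the broadly expressed counterpart, differed by -0.037 (SE 0.099). In the same fit 6 spermatogonial markers had a median difference of 0.11, with 5 of 6 positive. For 6 spermatocyte markers it was -0.086, with 4 of 6 negative. The part of these in the difference of Taf7l was not tested.

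In wildtype testis the mean of Fhl5 was 8.88 ± 0.72 (SD, n = 5), and in mutant testis it was 8.72 ± 1.05 (SD, n = 3). The difference of -0.16 (SE 0.49) had an adjusted p of 1.0 by limma, and an exact permutation test gave p = 0.750. The spread came mainly from the 2 high arrays. Without both of them, 4 wildtype arrays between 8.34 and 8.67 stood against 2 mutant arrays at 7.98 and 8.25, and the difference was -0.45 (SE 0.12) with an unadjusted limma p of 0.00417 and an adjusted p of 0.751. In the same 6 arrays the 5 round spermatid markers had a median difference of -0.31. Of these, 5 of 5 were negative and 2 were at an unadjusted limma p under 0.05. The 6 late spermatid markers had a median of -0.56, with 6 of 6 negative and 3 at that threshold. For the 3 fat genes the median was -0.48, with 3 of 3 negative and 2 at that threshold. The 6 spermatogonial markers went the other way, with a median of 0.18, 0 of 6 negative and 2 at that threshold. Over all 45101 probe sets in these arrays, 22982 were negative and 2956 met that threshold. The 3' excess of the Gapdh control was 0.051 and 0.041 on mutant replicates 3 and 5 and 0.11 to 0.22 on the 4 wildtype arrays. The part of these in the difference of Fhl5 was not tested. Between the 2 high arrays it was -0.21, from 1 array each. Without wildtype replicate 7 alone the sign turned, to 0.16, and without mutant replicate 3 or mutant replicate 5 to 0.21 and 0.076, so single arrays decide the direction of this gene.

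Spz1 had means of 9.89 ± 0.57 (SD, n = 5) and 9.75 ± 0.86 (SD, n = 3), with a difference of -0.14 (SE 0.39), an adjusted p of 1.0 by limma and an exact permutation p of 0.821. Without the 2 high arrays it was -0.34 (SE 0.18) at an adjusted p of 0.792, and mutant replicate 5, at 9.67, lay among the 4 wildtype arrays. The difference was 0.10 without wildtype replicate 7 and 0.26 without mutant replicate 3.

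**Figure D2:**
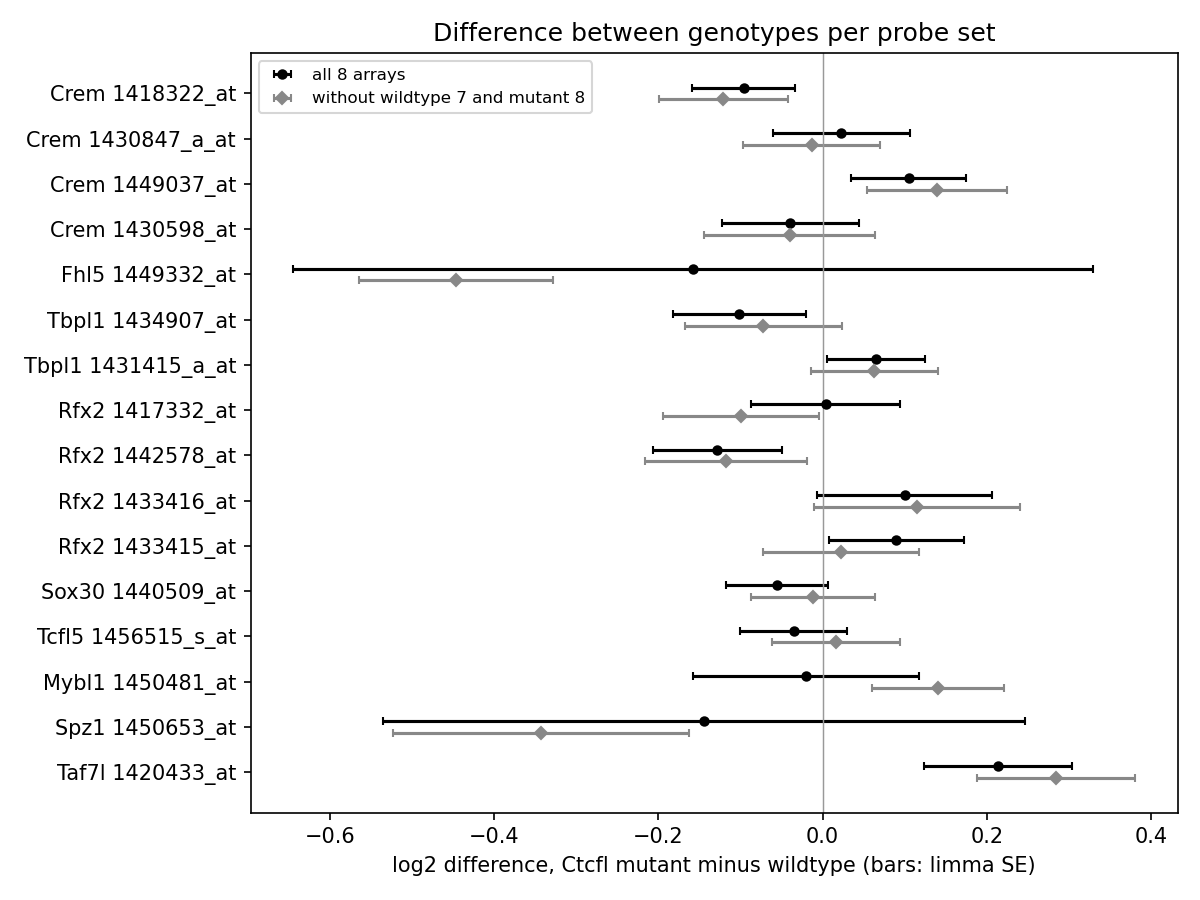
Log2 difference of mutant minus wildtype (x axis) with the limma SE as bars for each of the 16 probe sets, from all 8 arrays (black circles) and without wildtype replicate 7 and mutant replicate 8 (grey diamonds). Leaving out the 2 arrays moved Fhl5 from -0.16 to -0.45 and Spz1 from -0.14 to -0.34, whereas Taf7l was at 0.21 and 0.28.

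For Crem the probe sets did not point 1 way. Its main probe set differed by -0.096 (SE 0.063), with means of 8.03 ± 0.056 (SD, n = 5) and 7.93 ± 0.050 (SD, n = 3) and an exact permutation p of 0.0714. The others differed by 0.023 (SE 0.084), 0.10 (SE 0.070) and -0.039 (SE 0.083), in order of falling level. The 2 probe sets of Tbpl1 were also opposite in sign, at -0.10 (SE 0.081) and 0.065 (SE 0.060), and the 4 of Rfx2 lay between -0.13 and 0.10. No direction is therefore given for these 3 genes. Sox30 differed by -0.055 (SE 0.062), Tcfl5 by -0.035 (SE 0.065) and Mybl1 by -0.021 (SE 0.14), each with a limma adjusted p of 1.0. Mybl1 came to 0.14 and Tcfl5 to 0.016 without the 2 high arrays.

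Genes around the members were then examined in 6 lists, with 1 probe set for each gene. Of 55 genes 49 were measured, and 0 passed an adjusted p of 0.05 with limma, against 2 at an unadjusted p under 0.05, where the share over all probe sets was 3.47%. The first list held paralogs and general counterparts of the members, of which 11 of 14 were measured. Their median difference was -0.011, with 5 higher and 6 lower. Myb, a relative of Mybl1, was the 1 gene of the list at an unadjusted p under 0.05, at 0.19 (SE 0.060) with levels of 4.21 to 4.30 in wildtype and 4.38 to 4.48 in mutant testis, which is low on this array. Rfx1, a paralog of Rfx2, differed by -0.018 (SE 0.24), but it was high on wildtype replicate 7 and mutant replicate 8, at 8.84 and 8.96 against 7.92 to 8.37. Creb1, the broadly expressed relative of Crem, ranged only from 9.01 to 9.35.

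The 10 genes for cofactors had a median of -0.050, with 2 higher and 8 lower in mutant testis, and none reached an unadjusted p of 0.05. Kif17, the kinesin that carries ACT out of the spermatid nucleus, read 9.11, 9.14, 9.31, 9.48 and 9.79 in wildtype and 8.88, 9.17 and 9.78 in mutant testis. Like Fhl5 it was highest on wildtype replicate 7 and mutant replicate 8, by 1.45-fold and 1.69-fold. Gtf2a1l, the germ cell TFIIA subunit that works with TBPL1, ranged from 12.26 to 12.58. Taf4b, a germ cell TFIID subunit, had the largest difference of the list, at 0.17 (SE 0.085).

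Other regulators of germ cells, 6 measured of 7, had a median of -0.010 with 3 in each direction. Zfp37, a zinc finger gene of spermatids, was 1.91-fold and 2.05-fold higher on the 2 high arrays than on the others of their genotype, with levels of 9.66 and 9.53 against 8.25 to 8.85. The values of Ovol1, a zinc finger repressor of pachytene cells, did not overlap between genotypes, at 7.51 to 7.64 and 7.67 to 7.72, yet the difference was 0.12 (SE 0.062) with an unadjusted limma p of 0.0899 and an adjusted p of 1.0.

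The genes that CREM is known to switch on fell into 2 kinds by array. Of the 9 genes, 7 (Tnp1, Tnp2, Prm1, Prm2, Odf1, Smcp and Akap4) were higher on wildtype replicate 7 and mutant replicate 8 than on all other arrays. All but Akap4 are also the late spermatid markers that set these arrays apart above, so this count is no separate evidence. Tnp1, a transition protein of condensing spermatids, read 8.19, 9.16, 9.41, 9.21 and 12.28 in wildtype and 8.50, 8.20 and 11.44 in mutant testis, which is 9.77-fold and 8.52-fold. Tnp2 had the widest range of the list, 4.70, and the largest difference between genotypes, -0.28 (SE 1.09). Akap4, a protein of the fibrous sheath of the tail, was 2.38-fold and 2.40-fold higher, close to the rise of Spz1. Acr, the acrosomal protease, and Ldhc, the germ cell lactate dehydrogenase, stayed between 11.11 and 11.25 and between 14.29 and 14.36. Ldhc lay near the highest level on any array, 14.9, and how far such levels follow the amount of RNA was not tested. Between genotypes 7 of the 9 genes were lower and 2 higher in mutant testis with a median of -0.15, and none reached an unadjusted p of 0.05. Without the 2 high arrays the median was -0.44 and 3 of the 9 did so, against 2956 of all 45101 probe sets. The round spermatid markers, none of which is in the list, had a median of -0.31 in these 6 arrays, as given with Fhl5. For the fat genes it was -0.48 and for the spermatogonial markers 0.18. The part of these in the values of the CREM-dependent genes was not tested. The median of the CREM-dependent genes was -0.68 without mutant replicate 8 alone, and it turned to 0.20, 0.16 and 0.051 without wildtype replicate 7, mutant replicate 3 or mutant replicate 5.

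**Figure D3:**
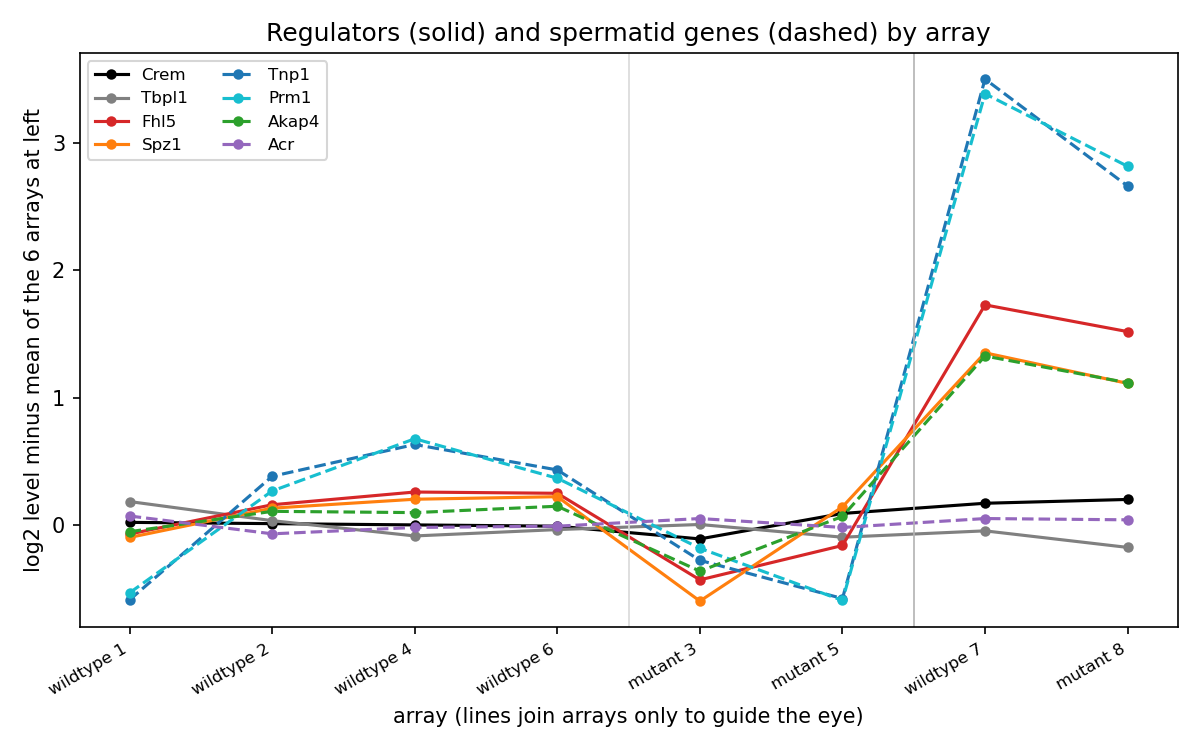
Log2 level on each array minus the mean of the 6 arrays at the left (y axis) for 4 regulators (solid lines; Crem is 1430847_a_at and Tbpl1 is 1434907_at) and 4 genes known to need CREM (dashed lines). On wildtype replicate 7 and mutant replicate 8, at the right, Fhl5 and Spz1 rise with Akap4, Tnp1 and Prm1, whereas Crem, Tbpl1 and Acr stay near 0.

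The list of genes of the kind bound by RFX factors held cilium genes and H1f6, which encodes a linker histone of the testis. The 7 measured of 8 had a median of 0.015, with 5 higher and 2 lower, and none reached an unadjusted limma p of 0.05. The 2 lower ones were H1f6, at -0.016 (SE 0.099), and Tekt1, at -0.088 (SE 0.067). Ift88 and Ift172, which encode intraflagellar transport proteins, each ranged over 0.20 on the log2 scale. Bbs4, a gene of the ciliary BBSome, had the widest range of the list, 0.56, with its lowest level of 7.97 on wildtype replicate 7, and a difference of 0.097 (SE 0.11).

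The 6 measured of 7 genes bound by MYBL1 were all lower in mutant testis, with a median of -0.10. Ddx4, the germ cell RNA helicase VASA, differed by -0.19 (SE 0.066). Its levels were 12.38, 12.37, 12.41, 12.27 and 12.43 in wildtype and 12.26, 12.18 and 12.11 in mutant testis, without overlap, at an unadjusted limma p of 0.0185 and an adjusted p of 1.0. Piwil2, a PIWI protein of the piRNA pathway, also did not overlap, at 11.12 to 11.35 and 11.06 to 11.09, with a difference of -0.12 (SE 0.073). The values of 2.70% of all probe sets did not overlap. Piwil1, its partner in pachytene cells, differed by -0.17 (SE 0.084). The rest of the list differed less, Mael by -0.080 (SE 0.063), Tdrd1 by -0.076 (SE 0.077) and Mov10l1 by only -0.0070 (SE 0.074). Over all probe sets 48.5% were lower in mutant testis. Some markers of testis cell types had larger differences than these genes. The mean level of 6 spermatogonial markers was 7.80 to 7.96 in wildtype and 7.87 to 8.11 in mutant testis, with 5 of 6 at positive differences. That of 5 Sertoli markers was 8.71 to 8.93 and 8.83 to 9.06, with 4 of 5 positive, and that of 6 spermatocyte markers was 10.97 to 11.15 and 10.91 to 11.09, with 4 of 6 negative. At an unadjusted limma p under 0.05 were 2 of the 6 spermatogonial markers, Gfra1 at 0.35 and Uchl1 at 0.26. The same held for 1 of the 5 Sertoli markers (Fshr) and 1 of the 6 spermatocyte markers (Sycp1 at -0.25). It also held for 1 of 4 Leydig markers (Star at 0.50) and 1 of 3 epididymis genes (Lcn5 at 0.19), and for 3.47% of all probe sets. Gfra1 and Lcn5 were dim, with mean levels of 5.18 and 5.08. None of these markers passed the adjusted threshold. Their part in the values of the MYBL1-bound genes was not tested.

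**Figure D4:**
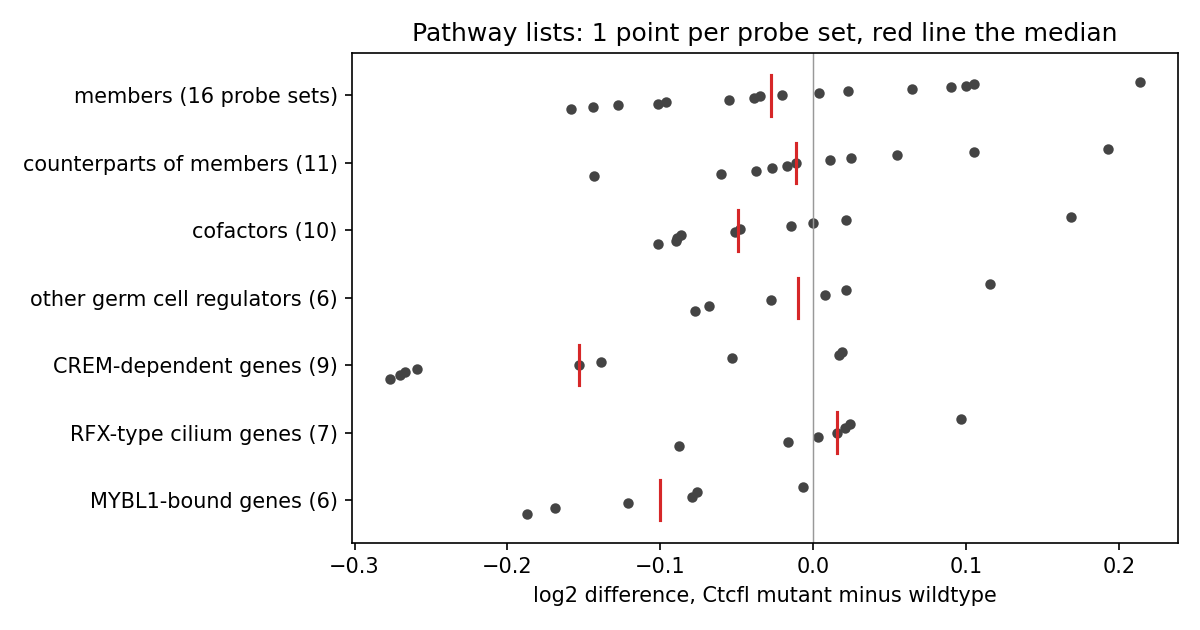
Log2 difference of mutant minus wildtype (x axis) for the 16 member probe sets and for 6 pathway lists with 1 probe set per gene; each point is a probe set and the red line is the median of the row. The CREM-dependent genes have a median of -0.15 and the MYBL1-bound genes, all to the left of 0, one of -0.10, and no point passed an adjusted p of 0.05.

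Probe sets with the pattern most like that of a member were sought over the 8 arrays, by the root mean square difference of levels after each probe set's own mean was taken off. For the Crem probe set with the largest SD (1430847_a_at, SD 0.10) the nearest were Gtsf1, Gfpt1, Ppm1a, Adcyap1r1 and Rnf139, at 0.026 to 0.029. That is a likeness of nearly flat patterns, since 34466 probe sets lay within 0.2 of it. The same was done for Fhl5, a choice made after its values were seen. The nearest were 4930564C03Rik, Iqcf4, Tex29, Actrt2 and 1700029H14Rik, at 0.045 to 0.071, and 110 probe sets, Fhl5 included, lay within 0.2. Actrt2, an actin-related gene of sperm heads, read 7.93, 8.04, 8.21, 8.23 and 9.68 in wildtype and 7.61, 7.79 and 9.33 in mutant testis. Spz1 lay at 0.21 from Fhl5.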

How the data were processed

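Total RNA of 8 testis samples at postnatal day 23 was measured on Mouse430_2 arrays of Affymetrix. The authors applied RMA with quantile normalisation and deposited log2 levels for each probe set, between 2.90 and 14.9. The sorted values of the arrays differed by at most 0.113. Quantile normalisation sets every array to 1 distribution, so changes are relative to all probe sets. Versions and the genome build of the annotation are not given in the sources used here, and no detection calls were used here. The authors' own comparisons in the deposited tables, as log2 fold changes, group means and p-values, were not used.

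Members were matched by gene symbol. Other genes were named through Entrez IDs and RefSeq (GRCm38.p6), with 37152 probe sets of 1 gene, 1952 of several genes, which were not named, 5933 without a name and 64 controls. The linear model of limma 3.58.1 with moderated variances, run in R 4.3.3, compared the genotypes for all 45101 probe sets over the 8 arrays. It had no covariates, since no batch is labelled, and its two-sided p-values were adjusted by Benjamini-Hochberg over all of them. The fit was also run on simulated data with independent noise for each probe set. These lacked the shift shared by wildtype replicate 7 and mutant replicate 8, so they cannot show how the fit handles it. Single probe sets were also tested by an exact permutation of the 8 arrays. The number of arrays limits the precision. Levels of different probe sets were not ranked against each other.

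All probe sets of the members are reported. The main probe set of a gene is the brightest on average among those whose ID has no suffix _s_, _x_ or _a_, or among all if each has one. From each list genes with a large difference or a wide range were named, and a few more after their values were seen. The gene with the smallest difference was not named for every list. The members and lists were chosen with earlier results of these data known, and so was the setting apart of wildtype replicate 7 and mutant replicate 8. Promoter sequences are from RefSeq (GRCm38.p6), cut to 250 bases before the start.

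Alternatives were leaving out each array, leaving out both arrays that stand apart, centring on array medians, repeated quantile normalisation, only probe sets above the median level, an intensity trend with a robust prior, array weights, an offset of 64 on the linear scale, and other choices of probe sets per gene. Other steps ran in Python 3.11.15 using scipy 1.17.1, numpy 2.4.6, matplotlib 3.10.9 and pandas 2.3.3.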

Additional observations from a re-analysis of the deposited data

Results flagged for a closer look

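Among the 5 wildtype arrays, 32 measures were searched for single arrays at a distance from the rest, and 11 had one. The measures were the 16 member probe sets and the mean levels of 16 gene lists. For independent measures chosen beforehand, chance gives about 1 in 20, or 1.60. That number cannot be set against the 11, since the measures overlap and 9 of the 11 were on wildtype replicate 7. This array was already known to stand apart when the lists were chosen. With 3 mutant arrays no such search was made in that genotype.

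On wildtype replicate 7, Fhl5 was at 10.14 against 8.67 on the nearest wildtype array, Spz1 at 10.88 against 9.75 and Crem 1430847_a_at at 10.80 against 10.65. Crem 1430598_at was low on wildtype replicate 2, at 3.94 against 4.17, near the lowest levels of the array. The mean levels on wildtype replicate 7 were 11.94 against 10.25 for the CREM-dependent genes and 11.83 against 9.52 for the late spermatid markers. They were 8.78 against 8.59 for the other germ cell regulators and 9.98 against 10.05 for the RFX-type list of cilium genes and H1f6. For the Leydig markers they were 8.98 against 8.57 and for the fat genes 9.12 against 7.07. The mean of the 3 epididymis genes stood out on wildtype replicate 1, at 5.37 against 4.53. This came from Crisp1 alone, at 5.82 there against 3.29 on the nearest wildtype array. Lcn5 at 4.96 and Adam7 at 5.32 lay close to wildtype replicate 2, at 4.99 and 5.31. Among the mutant arrays, which were not searched, Crisp1 was at 6.38 on replicate 8 and at 3.25 and 3.34 on replicates 3 and 5.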

How the results depend on the processing

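No paired analysis was made, since the labels do not say which samples came from the same litter. The count of 0 member probe sets, and of 0 probe sets in all, past an adjusted p of 0.05 held under all 15 alternatives. The count of all probe sets at an unadjusted p under 0.05 moved from 1564 to 2956 without both arrays that stand apart and to 707 among probe sets above the median level, where fewer were tested, and ranged from 1220 to 2649 leaving out 1 array, the last without mutant replicate 8. The member count at that threshold moved from 1 to 2 without both arrays (Fhl5 and Taf7l) and with the offset (Taf7l and Crem 1418322_at), to 0 with centring, and ranged from 0 to 1 leaving out 1 array. It was 0 without wildtype replicate 2, 4 or 6 or mutant replicate 5, and without wildtype replicate 1 the 1 probe set was Rfx2 1442578_at in place of Taf7l.

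Of the 16 member probe sets 9 kept their direction under all alternatives. Without both arrays the direction reversed for Crem 1430847_a_at (-0.013), Rfx2 1417332_at (-0.099), Tcfl5 (0.016) and Mybl1 (0.14). Array weights reversed Rfx2 1417332_at (-0.055), Tcfl5 (0.0025) and Mybl1 (0.064), and centring reversed Rfx2 1417332_at (-0.00028). Leaving out 1 array, the difference ranged from -0.047 to 0.11 for Crem 1430847_a_at, -0.091 to 0.0070 for Crem 1430598_at, -0.76 to 0.21 for Fhl5, -0.079 to 0.093 for Rfx2 1417332_at, -0.083 to 0.0047 for Tcfl5, -0.13 to 0.18 for Mybl1 and -0.59 to 0.26 for Spz1. The median over the member probe sets ranged from -0.035 to 0.045 and that of the cofactors from -0.061 to 0.0045. The median of the list of cilium genes and H1f6 ranged from -0.033 to 0.044. The cofactor median came to -0.0014 without both arrays and -0.0089 with array weights. The cause was not tested.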
